A study of Homo sapiens with 2 samples.

Results

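The genes of fatty acid synthesis were compared between H1944 cells with a control hairpin and H1944 cells with a hairpin against USP12. The 9 genes ACLY, ACSS2, ACACA, FASN, ELOVL6, SCD, FADS2, FADS1 and SREBF1 were found by their symbols among 59125 rows with a count, 1 row for each symbol, and all 9 had a mean of at least 1 count per 1000000 counts (CPM) over the libraries. H1944 is an established human lung adenocarcinoma line. The series held 1 library labelled control (shCON), with 18249112 counts, and 1 library labelled USP12-knockdown (shUSP12), with 17475359 counts. According to the study's methods, hairpins were delivered by lentivirus, with one against GFP as control, and neither the USP12 hairpin used nor the number of cultures behind each library was given in the sources used here. USP12, a deubiquitinase, had 711 counts in shCON and 219 in shUSP12, which was 29.3% of the control level after scaling.

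Cells build fatty acids in the cytosol from acetyl-CoA. ACLY makes it from citrate and ACSS2 from acetate, acetyl-CoA carboxylase (ACACA) turns it into malonyl-CoA, and fatty acid synthase (FASN) joins these units into palmitate. ELOVL6 lengthens palmitate, SCD places the first double bond in saturated chains, and FADS2 and FADS1 desaturate the polyunsaturated chains that derive from essential fatty acids. SREBF1 encodes the SREBP transcription factor that drives many of these genes; the protein is held in the endoplasmic reticulum by SCAP and INSIG proteins until proteases release it. Tumour cells are known for high rates of this pathway.

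The libraries differed in more than the targeted gene. Of 7 tested epithelial markers, 5 were higher in shUSP12, with a median log2 ratio of 1.21. The keratins KRT8 (−0.53) and KRT18 (−0.49) were lower, whereas KRT7 had 0.65 and the adhesion gene CDH1 1.21. KRT19 had 32 counts in shCON and 4452 in shUSP12, EPCAM had 115 and 1566, and the lung lineage factor NKX2-1 had 0 and 312. The surfactant gene SFTPB was at 0 in both. A gap from 3 or fewer counts in shCON to 50 or more in shUSP12 was found for 119 rows, 7 of them on the Y chromosome, and the reverse gap for 1 row. These 119 rows held 0.123% of the shUSP12 counts. Adipocyte markers summed to 3.90 CPM in shCON and 6.83 CPM in shUSP12, with ADIPOQ and LEP at 0, and hepatocyte markers summed to 1.78 and 1.53 CPM, with TTR at 0. Whether both libraries came from the same stock of H1944 cells is not given in the sources used here, so a difference between stocks and the effect of the hairpin cannot be told apart in any ratio of shUSP12 over shCON. The part of the listed differences in the results below was not tested, and with 1 library per group no result could be repeated without either of them. There were no replicates, so no p-value was computed. The 95% intervals are exact binomial intervals that cover counting error only.

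Of the 9 genes, 8 were lower in shUSP12 and ELOVL6 was higher. Of the 14612 rows whose mean reached 1 CPM, 7461 were lower, and abundant rows leaned lower still. Together the 9 genes held 106169 counts in shCON, 0.582% of the library (exact 95% interval 0.578 to 0.585), and 60939 counts in shUSP12, 0.349% (interval 0.346 to 0.351). The median log2 ratio of shUSP12 over shCON was −0.70, beside −0.01 over the 14612 rows whose mean reached 1 CPM. Ratios are given after scaling by TMM, which trims extreme genes before libraries are aligned, and after adding 0.1 CPM to each value. Fewer cells of a type and less RNA per cell cannot be told apart in these bulk libraries.

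**Figure D1:**
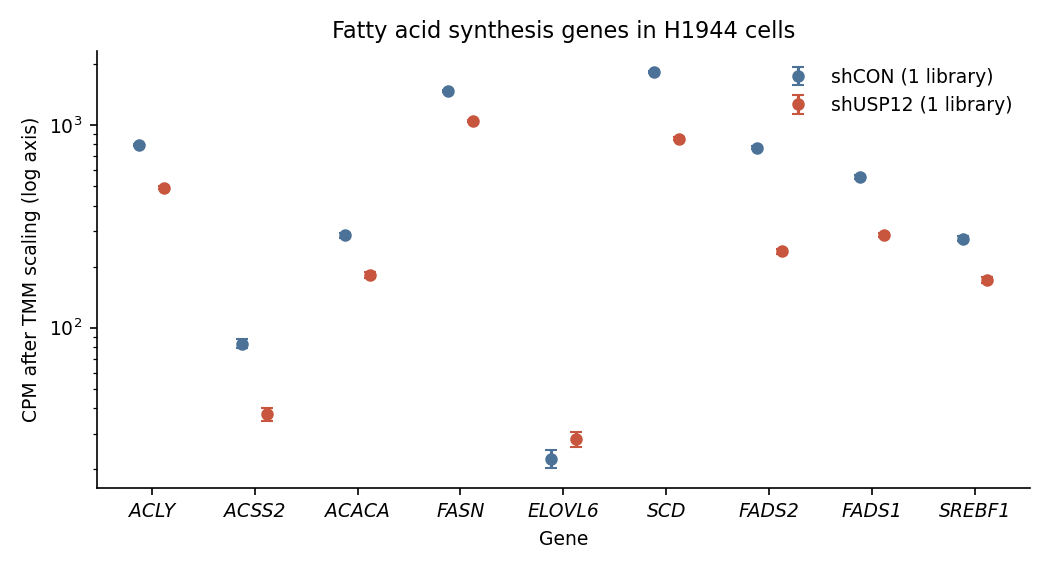
CPM after TMM scaling (log axis) of the 9 genes in the shCON and shUSP12 libraries, 1 library each, with bars for the exact 95% counting interval. SCD went from 1830.0 CPM in shCON to 853 CPM in shUSP12 and FADS2 from 772 to 238 CPM, and ELOVL6 was the single gene with a higher point in shUSP12.

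The genes that supply acetyl-CoA were both lower. ACLY (ENSG00000131473; chromosome 17, 41866917 to 41930542 on GRCh38, minus strand) had 13864 counts or 795 CPM (95% interval 782 to 809) in shCON and 8970 counts or 490.3 CPM (interval 480.2 to 500.5) in shUSP12. Its log2 ratio was −0.70 (interval −0.74 to −0.66). ACSS2 (ENSG00000131069; chromosome 20, 34872146 to 34927962, plus strand), which recovers acetate, had 1453 counts or 83.4 CPM (interval 79.1 to 87.8) in shCON and 684 counts or 37.4 CPM (interval 34.6 to 40.3) in shUSP12. The log2 ratio was −1.15 (interval −1.29 to −1.02). The count of ACSS2 relative to ACLY, which does not depend on the scaling of the libraries, was 0.105 in shCON and 0.0763 in shUSP12, so the acetate enzyme was lower by more than the citrate enzyme.

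The enzymes that build the chain had the ratios nearest to 0 among the lower genes. ACACA (ENSG00000278540; chromosome 17, 37084992 to 37406836, minus strand) had 4975 counts or 285 CPM (interval 278 to 293) in shCON and 3325 counts or 182 CPM (interval 176 to 188) in shUSP12. This gave a log2 ratio of −0.65 (interval −0.72 to −0.59). FASN (ENSG00000169710; chromosome 17, 82078338 to 82098294, minus strand) had 25706 counts or 1475 CPM (interval 1457 to 1493) in shCON and 19103 counts or 1044 CPM (interval 1029 to 1059) in shUSP12. Its log2 ratio of −0.50 (interval −0.53 to −0.47) was the nearest to 0 of the 8, so that 70.8% of the control level remained.

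ELOVL6 differed in direction. ELOVL6 (ENSG00000170522; chromosome 4, 110045846 to 110199199, minus strand) had 392 counts or 22.5 CPM (interval 20.3 to 24.8) in shCON and 515 counts or 28.1 CPM (interval 25.8 to 30.7) in shUSP12. Its log2 ratio was 0.32 (interval 0.13 to 0.52). Relative to SCD, the desaturase that acts on the same chains, the count of ELOVL6 was 0.0123 in shCON and 0.0330 in shUSP12, a log2 difference of 1.42 (interval 1.23 to 1.62). Relative to the ubiquitous elongase ELOVL1 it was 0.154 and 0.235, a log2 difference of 0.61 (interval 0.40 to 0.83).

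The 3 desaturases were among the lowest ratios. SCD (ENSG00000099194; chromosome 10, 100347233 to 100364826, plus strand) had 31896 counts or 1830.0 CPM (interval 1809.9 to 1850.1) in shCON and 15607 counts or 853 CPM (interval 839.7 to 866) in shUSP12. The log2 ratio of SCD was −1.10 (interval −1.13 to −1.07). FADS2 (ENSG00000134824; chromosome 11, 61792980 to 61867354, plus strand) had 13461 counts or 772 CPM (interval 759 to 785) in shCON and 4347 counts or 238 CPM (interval 231 to 245) in shUSP12. Its log2 ratio of −1.70 (interval −1.75 to −1.65) was the lowest of the 9, a level 3.25-fold lower. FADS1 (ENSG00000149485; chromosome 11, 61799627 to 61829318, minus strand) had 9631 counts or 553 CPM (interval 542 to 564) in shCON and 5243 counts or 287 CPM (interval 279 to 294) in shUSP12. Its log2 ratio was −0.95 (interval −0.996 to −0.90).

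FADS2 and FADS1 act in the same pathway and lie in opposite directions within 1 cluster, and their order changed. FADS2 had 1.40 times the count of FADS1 in shCON and 0.829 times in shUSP12, a log2 difference of −0.75 (interval −0.82 to −0.68). Per kilobase of annotated exon the ratio was 1.35 in shCON and 0.804 in shUSP12. The annotated spans of both genes overlap on opposite strands, the kit marked strand, and whether the counting used it was not stated, so reads in shared stretches are uncertain. The count of SCD over that of FASN was 1.24 in shCON and 0.817 in shUSP12, a log2 difference of −0.60 (interval −0.64 to −0.56). Per kilobase this ratio was 2.21 and 1.45, so SCD stood above FASN in both libraries.

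SREBF1 itself (ENSG00000072310; chromosome 17, 17810399 to 17837002, minus strand) had 4791 counts or 275 CPM (interval 267 to 283) in shCON and 3145 counts or 172 CPM (interval 166 to 178) in shUSP12. Its log2 ratio was −0.68 (interval −0.74 to −0.61), near that of ACLY and ACACA. These are transcript levels and say nothing of the processed protein. Relative to SREBF2, which encodes the SREBP of sterol genes, the count of SREBF1 was 0.571 in shCON and 0.514 in shUSP12, a log2 difference of −0.15 (interval −0.23 to −0.07).

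**Figure D2:**
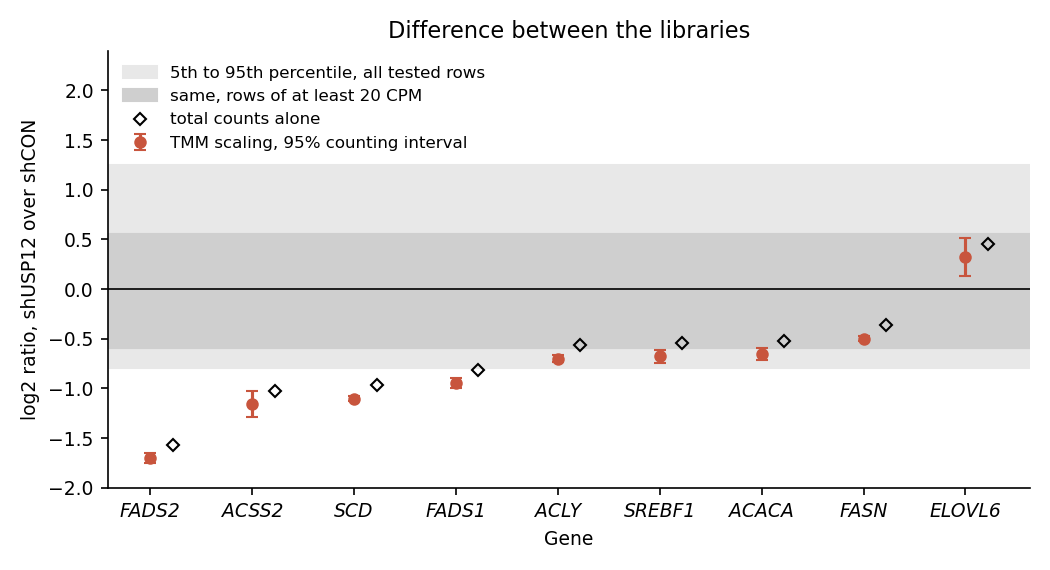
log2 ratio of shUSP12 over shCON for the 9 genes, ordered from lowest to highest, with 95% counting intervals (points) and the ratio with scaling to total counts alone (diamonds). The light band spans the 5th to 95th percentile of all 14612 rows and the dark band that of rows whose mean reached 20 CPM; FADS2, ACSS2, SCD and FADS1 lay below both bands.

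Against all rows, 3 of the 9 genes (FADS2, ACSS2 and SCD) were at least 2-fold lower, where 3.01% of the 14612 rows were, and none was at least 2-fold higher, where 6.48% were. With scaling to total counts alone the ratio of SCD was −0.97 and no longer 2-fold. At 1.5-fold, 7 of the 9 were lower, all but FASN and ELOVL6, beside 9.11% of rows. The counting interval lay wholly below 0 for 8 genes, beside 29.1% of rows, and wholly above 0 for ELOVL6, beside 27.1%.

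Abundant rows varied less between the libraries and leaned lower, so the members were also read beside rows of their own level. Among the 7461 rows whose mean reached 20 CPM, which held all 9 genes, 0.992% were at least 2-fold lower, 5.09% at least 1.5-fold lower, and 38.8% had an interval wholly below 0. FADS2 had the 7th lowest ratio of these rows, ACSS2 the 37th, SCD the 50th and FADS1 the 95th. Among the 909 rows whose mean reached 200 CPM, a limit chosen after seeing the data, the median log2 ratio was −0.17, and 67.2% had an interval wholly below 0. The upper quartile of their ratios was −0.00046, so most rows of this level were lower, as were all 7 members that reached it. Of the 7 members at that level, 2 (FADS2 and SCD) were at least 2-fold lower, beside 1.1% of these rows, and 6 were at least 1.5-fold lower, beside 7.48%. FASN, at −0.50, and ACACA, at −0.65, lay above the 5th percentile of these abundant rows, −0.66.

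**Figure D3:**
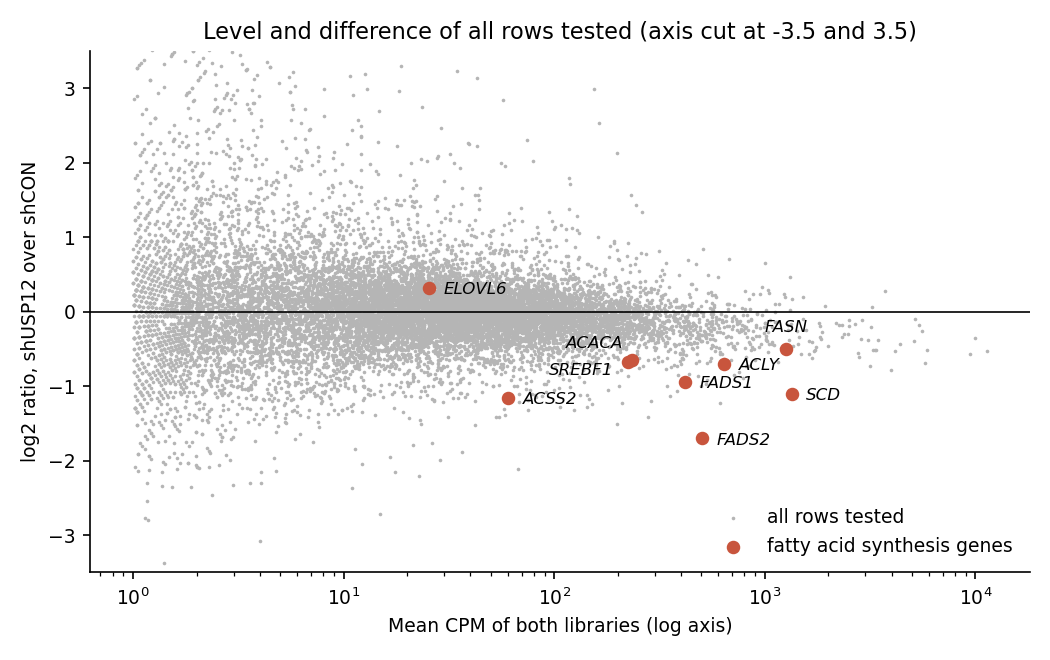
Mean CPM of both libraries (log axis) against the log2 ratio of shUSP12 over shCON for all 14612 rows tested (grey) and the 9 fatty acid synthesis genes (red, named); the most extreme rows lie beyond the cut vertical axis. The grey cloud narrows and sits below 0 at high levels; FADS2 and SCD lie below its bulk, FASN lies inside it, and ELOVL6 lies inside it, above 0, at a mean of 25.3 CPM.

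Levels of different genes were compared per kilobase of the union of annotated exons. In shCON the order was SCD (349 CPM per kilobase), FASN (158), ACLY (153), FADS2 (73.2), FADS1 (54.0), SREBF1 (33.4), ACACA (21.9), ACSS2 (15.9) and ELOVL6 (3.09). In shUSP12 the levels were 163 for SCD, 112 for FASN, 94.1 for ACLY, 28.02 for FADS1, 22.5 for FADS2, 20.9 for SREBF1, 13.96 for ACACA, 7.12 for ACSS2 and 3.87 for ELOVL6. The order was thus the same except that FADS1 stood above FADS2. SCD made up 40.5% of the summed level per kilobase of the 9 genes in shCON and 34.96% in shUSP12, and FASN 18.4% and 24.1%. With the length of the longest transcript, ACLY stood above FASN in shCON, at 184 against 174 CPM per kilobase, so the order of these neighbours depends on the length used.

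The sequences before the starts of these genes are shown because 8 of the 9 were lower together. RefSeq start sites on GRCh38.p14 were found for 8 of the genes, at 13 starts; FASN was not matched. The 250 bases before each start were searched on both strands for 4 short motifs known from promoters of this pathway. The sterol regulatory element, bound by SREBP proteins, was searched as TCACNCCAC. The E-box, which many basic helix-loop-helix factors recognise, was searched as CACGTG. The binding site of the factor NF-Y was searched by the letters of its name, CCAAT. The GC box, a site of SP1 and its relatives, was searched as GGGCGG. No overlap between matches was removed. The windows of the genes with the 3 lowest ratios and of ELOVL6 are given 5′ to 3′, with CCAAT and GC boxes of either strand in capitals; where a gene had several starts, the window with more kinds of motif is shown.
FADS2, chr11:61816154-61816403, plus strand: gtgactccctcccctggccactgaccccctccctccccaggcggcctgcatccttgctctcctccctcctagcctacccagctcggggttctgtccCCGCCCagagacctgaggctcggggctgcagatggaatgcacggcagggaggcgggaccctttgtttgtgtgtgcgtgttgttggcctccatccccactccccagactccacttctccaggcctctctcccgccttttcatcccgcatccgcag
ACSS2, chr20:34874739-34874988, plus strand: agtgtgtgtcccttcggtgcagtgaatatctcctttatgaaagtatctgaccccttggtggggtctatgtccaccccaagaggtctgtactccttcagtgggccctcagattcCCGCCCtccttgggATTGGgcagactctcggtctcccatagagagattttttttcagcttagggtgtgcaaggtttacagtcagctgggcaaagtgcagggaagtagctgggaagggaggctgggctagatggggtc
SCD, chr10:100346983-100347232, plus strand: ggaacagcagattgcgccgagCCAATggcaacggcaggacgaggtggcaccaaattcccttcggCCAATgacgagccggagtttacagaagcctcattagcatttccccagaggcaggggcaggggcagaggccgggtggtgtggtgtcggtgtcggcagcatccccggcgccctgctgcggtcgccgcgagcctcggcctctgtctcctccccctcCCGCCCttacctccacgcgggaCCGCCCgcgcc
ELOVL6, chr4:110198616-110198865, minus strand: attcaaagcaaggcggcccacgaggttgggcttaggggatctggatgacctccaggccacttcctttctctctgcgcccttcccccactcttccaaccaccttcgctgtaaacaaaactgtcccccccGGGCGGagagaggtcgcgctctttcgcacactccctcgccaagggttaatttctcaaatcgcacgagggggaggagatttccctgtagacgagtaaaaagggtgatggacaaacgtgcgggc

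A GC box stood in at least 1 window of all 8 genes, and in 11 of the 13 windows, where 42.6% of 35116 such windows in the table held one. SCD had 2 GC boxes within the last 33 bases before its start, and the window of ELOVL6 had 1 between 122 and 117 bases before it. A CCAAT box was found in 6 of the 13 windows, where 32.0% of all windows held one, and these belonged to 4 genes (SCD, ACLY, ACSS2 and ACACA). SCD had 2, at 229 and 186 bases before the start. The letters of the sterol element and of the E-box were in none of the 13 windows, where 0.883% and 6.34% of all windows held them. At such low shares few matches can appear in 13 windows. Elements that differ from these letters or lie outside the windows were not searched, so no match does not mean no site. Neighbouring starts share sequence, and the matches describe letters, not bound sites. The share of G and C bases in the 13 windows ranged from 43.6% to 81.6%. The part of base composition in the GC box matches was not tested. ELOVL6, the gene with the higher level, held a GC box and no CCAAT box, as did FADS1, FADS2 and SREBF1.

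The 9 genes lie on 5 chromosomes. ACLY, ACACA, FASN and SREBF1 lie on chromosome 17, where 868 rows had a median log2 ratio of −0.03. The medians of chromosomes 4, 10, 11 and 20 were 0.08, −0.10, −0.01 and 0.07. The nearest row on each side of FASN, DUS1L (0.46) and CCDC57 (0.21), was higher in shUSP12. TOM1L2, 6509 bases from SREBF1, was higher (0.97). On the other side the nearest tested row, PEMT, lay 218691 bases away and was lower (−0.34, interval −0.57 to −0.12). RAI1, which overlaps SREBF1 on the other strand, had 1334 and 1603 counts (log2 ratio 0.19, interval 0.09 to 0.30). Within the FADS cluster, FEN1, a DNA repair nuclease gene inside the annotated span of FADS2, had 1650 counts in shCON and 1917 in shUSP12 (log2 ratio 0.15), and the neighbouring TMEM258 had a log2 ratio of 0.57. FADS3, the third gene of the cluster, had 749 and 591 counts and a log2 ratio of −0.41 (interval −0.57 to −0.25). OLMALINC, a long non-coding RNA gene beside SCD, was lower as well, with 307 and 198 counts and a log2 ratio of −0.70 (interval −0.97 to −0.44). GGT7, which overlaps ACSS2 on the other strand, had 329 and 321 counts.

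**Figure D4:**
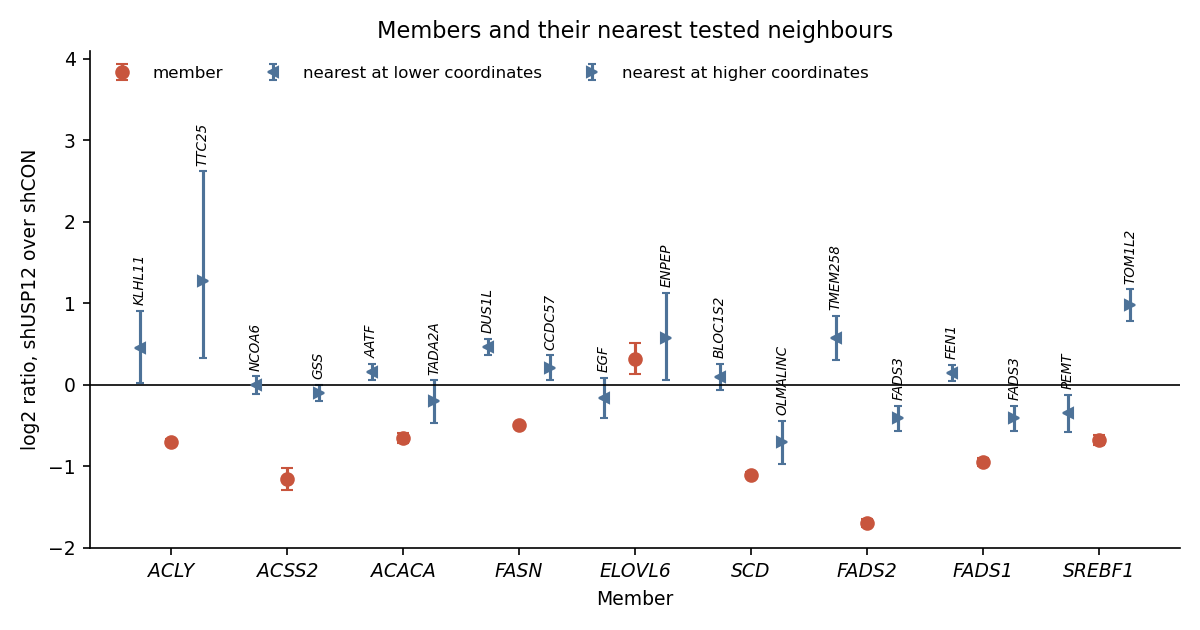
log2 ratio of shUSP12 over shCON for each of the 9 genes (circles) and the nearest row above 1 CPM at lower and at higher coordinates (triangles, named), with 95% counting intervals. Each of the 8 lower genes lay below both of its neighbours, and the interval of OLMALINC beside SCD was wholly below 0.

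The genes that feed the pathway with carbon and NADPH were mostly lower too. Of 12 such genes, all past the filter, 10 were lower and 2 higher, with a median log2 ratio of −0.44 and 1 gene at least 2-fold lower. SLC25A1, the carrier that exports citrate from mitochondria, had 3418 counts in shCON and 1658 in shUSP12, or −1.11 on the log2 scale (interval −1.20 to −1.03). The NADPH producers PGD (14753 and 9866 counts, log2 ratio −0.65) and ME1 (3233 and 2242 counts, log2 ratio −0.60) were lower as well. The enzymes upstream of citrate export were nearer to 0, with −0.12 for citrate synthase (CS) and −0.13 for PDHA1, a subunit of pyruvate dehydrogenase. MPC1, a subunit of the mitochondrial pyruvate carrier, had 104 and 144 counts (log2 ratio 0.39, interval 0.03 to 0.78). The other subunit, MPC2, was lower, with 490 and 355 counts (log2 ratio −0.53, interval −0.74 to −0.33).

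Partners of the single steps were compared by step. Of the 9 tested genes around malonyl-CoA, 5 were lower and 4 higher, with a median of −0.10 that became 0.03 with total counts alone. MID1IP1, which promotes assembly of acetyl-CoA carboxylase, was the lowest at −0.50 (interval −0.58 to −0.42), and ACACB, the second carboxylase, had 372 and 332 counts and a log2 ratio of −0.23. PRKAA1, a catalytic subunit of the kinase AMPK that inhibits the carboxylases, had 0.24 (interval 0.14 to 0.34). PRKAA2, the other catalytic subunit, went the other way at −0.27 (interval −0.48 to −0.06). Of 11 tested genes of the elongation cycle other than ELOVL6, 8 were lower and 3 higher, with a median of −0.21, and 7 intervals lay below 0 and 1 above. Among the elongases ELOVL1 had −0.29, ELOVL2 −0.55 and ELOVL5 −0.12, each on the other side of 0 from ELOVL6, and ELOVL4 had 36 and 4 counts. The dehydratase gene HACD4 had 17 and 83 counts. Of 9 tested partners of desaturation, 6 were lower and 3 higher, with a median of −0.24, and 4 intervals lay below 0 and none above. CYB5R3, the reductase that passes electrons to the desaturases through cytochrome b5, was the lowest at −0.68 (interval −0.75 to −0.61), and CYB5A, cytochrome b5 itself, had −0.38 (interval −0.50 to −0.26).

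The genes that control SREBP were split. INSIG1, which retains SREBP and is itself an SREBP target, had 3518 counts in shCON and 1526 in shUSP12, or −1.27 on the log2 scale (interval −1.36 to −1.19). INSIG2 had 136 and 209 counts and a log2 ratio of 0.54 (interval 0.23 to 0.87), so the related retention genes differed in opposite directions. SREBF2 had 8395 and 6121 counts and a log2 ratio of −0.53 (interval −0.57 to −0.48). The site-2 protease gene MBTPS2 had 0.18 and FBXW7, a ubiquitin ligase of nuclear SREBP, 0.55 (interval 0.33 to 0.79). Over all 12 genes of SREBP processing, 6 were lower and 6 higher, and the median of 0.02 became −0.02 with upper quartile factors. The other transcription factors of lipogenesis had a median of −0.03, or 0.10 with total counts alone, with 9 of 16 lower. Among these 16 genes, 4 intervals lay below 0 and 5 above. RXRA, which encodes a partner of LXR, was the lowest, with 4107 and 3257 counts (log2 ratio −0.40, interval −0.47 to −0.34). MLXIPL, which encodes ChREBP, had 160 and 138 counts and an interval from −0.62 to 0.05 that included 0, and NR1H3, which encodes LXR alpha, had 351 and 341 counts and an interval from −0.33 to 0.11. PPARG, a nuclear receptor of fat storage, was the highest at 0.60 (interval 0.39 to 0.81).

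Genes of cholesterol synthesis and LDL uptake, which share SREBP control with fatty acid synthesis, had a median log2 ratio of −0.66 with 22 of 23 lower, beside −0.70 and 8 of 9 here. Of 8 proliferation genes, 7 were lower, with a median of −0.38 and the kinase CDK1 lowest at −0.67. The part of the proliferation difference in the levels of the 9 genes was not tested.

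**Figure D5:**
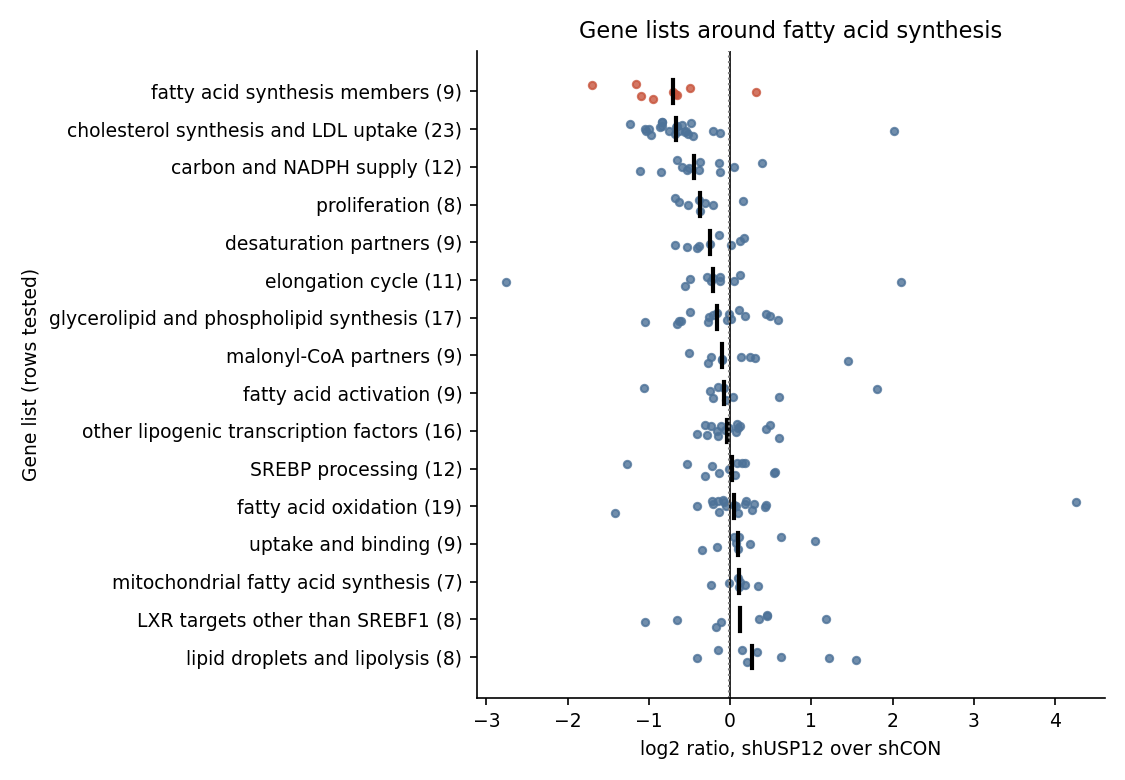
log2 ratio of shUSP12 over shCON for each tested gene (points) of the 9 fatty acid synthesis genes (red) and of 15 related gene lists (blue), with the list median as a black bar and the number of tested genes in brackets; the dotted line marks the median of all rows, −0.01. The fatty acid synthesis, cholesterol, carbon and NADPH supply and proliferation lists had the lowest medians, from −0.70 to −0.38.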

How the data were processed

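Stranded libraries were made from mRNA of H1944 cells, 1 per group, with groups assigned by the treatment given in the labels. The deposited values were whole-number counts per gene, not normalised. According to the study's methods, the authors trimmed reads and filtered ribosomal RNA with Seqtk, mapped to GRCh38 with HISAT2 and counted uniquely mapped fragments with StringTie; the submitters' processing notes name Trimmomatic, HISAT2 2.0.4 and HTSeq 0.6.0. In each file, 91 lines of annotation text without a count were left out.

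Counts were scaled to CPM with TMM factors (0.955 for shCON, 1.05 for shUSP12) from edgeR 4.0.16 in R 4.3.3. The log2 ratio was taken after adding 0.1 CPM, which understates changes of low genes. Rows whose mean reached 1 CPM were tested, and 2-fold was the threshold. Intervals were exact Clopper-Pearson intervals without the added value; those of ratios between genes of 1 library came from the conditional odds ratio. PCR copies were not marked by molecular identifiers, so the intervals understate the error. A level of 3 counts equalled 0.164 CPM of the total for shCON, and 0.172 CPM for shUSP12. With 1 library per group no test was run. Gene positions and lengths came from GENCODE release 44 on GRCh38, and start sequences from RefSeq. The steps, in Python 3.11.15 with SciPy 1.17.1, were tested on simulated counts.

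The members and lists were chosen with earlier results of these data known. Named genes were the 9 members, USP12, every tested gene of related lists of up to 8 and the 4 highest and 4 lowest ratios of longer ones, and the nearest tested row on each side of each member. MPC2, pairs compared within a library, overlapping genes and marker genes were chosen after their values were seen. Alternatives were other scalings (one with size factors of DESeq2 1.42.0), pseudocounts, filters, thresholds and lengths; the limit of 200 CPM was added after seeing the data. Counting strand and annotation release of the deposited counts are not given in the sources used here. Some genes of the related lists are counted in them but not reported by name here.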

Additional observations from a re-analysis of the deposited data

How the results depend on the processing

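No paired analysis was possible because shCON and shUSP12 are single libraries, and neither could be left out. Values outside the reported counting interval, and counts over 1.5 times apart, are listed. For these the cause was not tested beyond what each setting does by construction. The 8 lower genes were lower, and ELOVL6 higher, in all 8 settings of scaling and pseudocount, with FADS2 between −1.75 and −1.57, FASN between −0.54 and −0.37 and ELOVL6 between 0.28 and 0.45. Scaling to total counts alone, which shifted the median of all rows by 0.13, gave −0.57 for ACLY, −1.02 for ACSS2, −0.52 for ACACA, −0.37 for FASN, −0.97 for SCD, −1.57 for FADS2, −0.81 for FADS1, −0.54 for SREBF1 and −0.57 for the median of the 9. It gave 291 rows at least 2-fold lower and list medians of −0.31 for carbon and NADPH supply, 0.15 for SREBP processing, 0.23 for uptake, 0.19 for oxidation, −0.53 for cholesterol genes and −0.24 for proliferation. Upper quartile factors gave −0.74 for ACLY and for the median of the 9, −0.54 for FASN and −1.15 for SCD. The mean in place of the median gave −0.79 for the 9 genes, 0.10 for malonyl-CoA partners, −0.078 for SREBP processing, 0.19 for oxidation and −0.59 for cholesterol genes, and a mean of at least 5 CPM gave −0.11 for LXR targets.

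Of the 9 genes, 7 were lower at 1.5-fold, and by the counting interval 8 were lower and 1 higher. Rows lower and higher numbered 1331 and 1744 at 1.5-fold, 4251 and 3955 by the interval, 2447 and 3993 with no filter, 168 and 361 at 5 CPM, 74 and 123 at 20 CPM, and 10 and 4 at 200 CPM, against 440 and 947 reported; a pseudocount of 1 CPM left 214 lower. With the longest transcript as length, CPM per kilobase in shCON and shUSP12 was 184 and 114 for ACLY, 28.5 and 12.8 for ACSS2, 28.5 and 18.1 for ACACA, 174 and 123 for FASN, 3.42 and 4.28 for ELOVL6, 152 and 46.8 for FADS2, 127 and 65.7 for FADS1, and 56.1 and 35.1 for SREBF1. With total counts alone it was 146 and 98.6 for ACLY, 20.9 and 14.6 for ACACA, 151 and 117 for FASN, 333 and 170.3 for SCD, 69.9 and 23.6 for FADS2, 51.6 and 29.3 for FADS1, and 31.9 and 21.9 for SREBF1. The depth limits low genes such as ELOVL4, not the 9 members.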

Other observations

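Of 9 tested genes of uptake and binding, 7 were higher, with a median log2 ratio of 0.10; the acyl-CoA binding protein DBI was the lowest at −0.35 and the transporter MFSD2A had 100 counts in shCON and 163 in shUSP12. Of 8 tested genes of lipid droplets and lipolysis, 6 were higher, with a median of 0.27. The droplet coat gene PLIN2 had 231 and 376 counts (log2 ratio 0.63, 95% interval 0.39 to 0.88), and G0S2, an inhibitor of triglyceride lipase, had 142 and 348 (1.21, interval 0.94 to 1.52). MGLL, a monoglyceride lipase gene, was lower, with 6845 and 5419 counts (−0.41, interval −0.46 to −0.36). Of 19 tested genes of fatty acid oxidation, 10 were higher and 9 lower, with a median of 0.05 that was −0.00089 with no filter. CPT2 (0.44) and ACADS (0.43) were among the highest, and CPT1C, with 5 counts in shCON and 134 in shUSP12, had the largest ratio at 4.26. ACADL, an acyl-CoA dehydrogenase gene, was the lowest, with 41 and 15 counts (−1.41, interval −2.48 to −0.64), and the isomerase gene ECI1 had −0.41. Of 9 tested genes of fatty acid activation, 6 were lower, 4 intervals lay below 0 and 2 above, and the median was −0.07, which became 0.06 with total counts alone. ACOT1, whose sequence is close to that of ACOT2 and whose count is therefore uncertain, was the lowest at −1.07. Mitochondrial fatty acid synthesis, a separate route that makes lipoic acid precursors, had 5 of 7 tested genes higher and a median of 0.11.

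Genes that place fatty acids into glycerolipids were split, with 11 of 17 lower and a median of −0.16. PNPLA3, a lipase gene under SREBP control, had 221 and 111 counts (−1.05, interval −1.41 to −0.73), and the phospholipid acyltransferase genes LPCAT3 (−0.66) and LPCAT1 (−0.63) were also lower. The first acyltransferases GPAM (0.50) and GPAT3 (0.60) were higher. Targets of LXR other than SREBF1 were split as well, with 4 of 8 lower and a median of 0.12 that became −0.11 at a mean of at least 5 CPM. The cholesterol exporter ABCA1 had a log2 ratio of 0.36 (interval 0.20 to 0.51) and APOE one of 1.18 (interval 0.93 to 1.44), whereas APOC1 had −1.05 and ABCG1 −0.17 (interval −0.44 to 0.09). The 4 remaining marker lists summed to 188 CPM in shCON and 122 CPM in shUSP12 for fibroblast markers, 1.20 and 3.01 CPM for endothelial markers, 1.61 and 2.62 CPM for leukocyte markers, and 7145 and 6094 CPM for epithelial markers. Sums follow their most abundant genes: KRT8 and KRT18 were lower while 5 of 7 tested epithelial markers were higher, and among fibroblast markers COL1A1 was lower (−2.11) while DCN (0.24) and LUM (0.41) were higher.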
